A study of Caenorhabditis elegans with 2 samples.

Results

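Divergent shared promoters are stretches of DNA that lie upstream of 2 or more protein-coding genes read in opposite directions. PHA-4 peaks in such stretches were selected by position alone. A peak was a member when its summit, its point of highest signal, fell in the promoter windows of at least 2 protein-coding genes, with at least 1 gene on each strand, where the window of a gene runs from 1000 bp before its start to 200 bp after it. Summits within 250 bp of a tRNA, snoRNA, snRNA, rRNA or miRNA gene were left out. Of 2920 nuclear peaks, 256 met the first condition and 240 (8.22%) were members. The members lay in the windows of 477 genes, with 2 genes at 222 members and 3 genes at 18. The comparison set was the 755 peaks whose summit lay in the promoter window of exactly 1 protein-coding gene, with the same distance kept from small RNA genes.

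The peaks come from chromatin immunoprecipitation and sequencing of whole Caenorhabditis elegans worms at the L4 larval stage, at 48 h, in 2 biological replicates that form 1 group. The strain, RW12220, carries the allele st12220, a TY1::EGFP::3xFLAG tag inserted by CRISPR in the endogenous pha-4 gene on chromosome V, and larvae were synchronised by starvation at L1 after bleaching. The sample descriptions name an anti-GFP antibody and the antibody field names pha-4. There was no second condition, no untagged strain was analysed here, and signal from whole animals does not say in which cells PHA-4 was bound.

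PHA-4 is the worm's FoxA forkhead factor, known for specifying the pharynx, the foregut of the worm, and for later roles in the gut and in longevity under dietary restriction. FoxA proteins bind sequences close to TGTTTAC or TGTTTGC. The worm genome is compact, and neighbouring genes on opposite strands often start close to each other, so that 1 stretch of DNA serves as upstream sequence for both. Genes needed in most cells, such as those for ribosomal proteins and chaperones, are common in this arrangement.

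The sequences at the summits are shown first, because the strongest members include pairs with ribosomal protein and heat shock genes and 1 of the 8 strongest holds a forkhead sequence. Each line gives the summit base and 50 bases to each side of it, on the plus strand of the RefSeq copy of ce11 (WBcel235). These are the 8 strongest members, all of them in the lists of both replicates and between the starts of the pair. Capitals mark GCGTC, or GACGC where it is read on the other strand.
F44E5.5/F44E5.4 (chrII:11759409-11759509): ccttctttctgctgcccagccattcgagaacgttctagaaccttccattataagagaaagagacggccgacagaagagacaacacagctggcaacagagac
tasp-1/K01G5.10 (chrIII:10759200-10759300): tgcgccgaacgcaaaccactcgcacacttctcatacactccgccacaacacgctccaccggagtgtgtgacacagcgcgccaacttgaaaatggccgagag
K11H12.8/rpl-15 (chrIV:654880-654980): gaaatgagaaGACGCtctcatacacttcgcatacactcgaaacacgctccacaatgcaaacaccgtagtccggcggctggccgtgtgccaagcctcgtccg
Y17G9B.5/rpl-20 (chrIV:4750014-4750114): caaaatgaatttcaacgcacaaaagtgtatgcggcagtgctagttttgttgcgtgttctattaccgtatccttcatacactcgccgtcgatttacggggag
set-16/drr-2 (chrIII:13643681-13643781): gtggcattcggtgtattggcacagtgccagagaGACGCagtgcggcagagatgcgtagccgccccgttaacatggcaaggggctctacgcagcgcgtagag
tag-340/nhl-2 (chrIII:4899879-4899979): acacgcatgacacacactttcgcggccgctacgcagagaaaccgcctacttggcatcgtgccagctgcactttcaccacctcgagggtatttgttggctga
hsp-60/Y22D7AL.10 (chrIII:1619068-1619168): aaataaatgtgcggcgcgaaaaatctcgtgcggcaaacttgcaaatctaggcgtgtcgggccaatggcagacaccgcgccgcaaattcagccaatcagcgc
set-21/rpl-7A (chrIV:4390606-4390706): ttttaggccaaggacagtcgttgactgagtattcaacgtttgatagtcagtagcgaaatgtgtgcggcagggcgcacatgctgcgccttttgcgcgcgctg
Of these 8, the K11H12.8/rpl-15 and set-16/drr-2 sequences hold GCGTC. Next are 4 of the 5 strongest members that hold TGTTTAC or TGTTTGC, with that sequence, or GTAAACA or GCAAACA where it is read on the other strand, in capitals.
K11H12.8/rpl-15 (chrIV:654880-654980): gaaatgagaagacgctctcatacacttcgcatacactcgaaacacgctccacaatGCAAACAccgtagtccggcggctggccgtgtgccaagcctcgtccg
enpl-1/imp-2 (chrIV:11119179-11119279): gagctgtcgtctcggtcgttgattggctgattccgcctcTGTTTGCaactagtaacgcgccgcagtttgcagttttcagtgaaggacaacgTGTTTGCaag
trap-3/sec-61.B (chrIV:2389092-2389192): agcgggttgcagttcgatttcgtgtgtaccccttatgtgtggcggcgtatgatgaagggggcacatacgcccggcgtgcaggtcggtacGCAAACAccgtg
tsr-2/set-26 (chrIV:16656379-16656479): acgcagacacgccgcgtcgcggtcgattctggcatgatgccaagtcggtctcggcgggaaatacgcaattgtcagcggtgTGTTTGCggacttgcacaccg
The enpl-1/imp-2 sequence holds 2 copies of TGTTTGC and the other 3 sequences hold 1 copy. The K11H12.8/rpl-15 sequence appears in both sets.

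The strongest member lay between 2 HSP70 heat shock protein genes. The summit was 203 bp upstream of F44E5.5 and 148 bp upstream of F44E5.4, and its signal value, the authors' peak-caller score, was 998 in the list made from both replicates. The strongest candidate peak overlapping it had a signal of 474 in replicate 1 and 539 in replicate 2. This was the 4th strongest of the nuclear peaks. The sequence printed above for this pair holds 3 copies of the heat shock element (TTC, any 2 bases, GAA, any 2 bases, TTC, counted on both strands and with overlap), the site of the heat shock factor HSF-1. This pattern was looked for after the sequences had been seen. It occurred within 50 bp of the summit in 7 of 240 members (2.92%), in 8 of 755 single-gene promoter peaks (1.06%) and in 120 of 19973 windows of the same length placed 150 bp upstream of every protein-coding start (0.601%). Of those 7 members, rpn-3/hsp-110, hsp-16.41/hsp-16.2 and dnj-12/mtx-1 also carry a chaperone gene.

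The second strongest member lay 57 bp upstream of tasp-1, a TASPase protease homolog, and 728 bp upstream of K01G5.10, with a signal of 919.7 (551 in replicate 1 and 376 in replicate 2). The third lay between K11H12.8 and rpl-15, a protein of the large ribosomal subunit, at 695.7 (469 and 221). The fourth lay between Y17G9B.5 and rpl-20 at 638 (435 and 192). All of the 25 strongest members were in the thresholded lists of both replicates, down to eef-1G/ctf-4 at 276.3, where eef-1G encodes a subunit of translation elongation factor 1. The other ribosomal protein pairs among these 25 were set-21/rpl-7A (467), hsr-9/rps-19 (436), lin-54/rpl-12 (425), rps-1/ifet-1 (412) and ekl-4/rps-20 (309.96).

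Pairs with other roles in making and folding proteins also stood in the upper range. The set-16/drr-2 member, between an MLL-type histone methyltransferase gene and a translation initiation factor eIF4H homolog, had a signal of 581 (378 in replicate 1 and 206 in replicate 2). The mitochondrial chaperonin gene hsp-60 and its neighbour Y22D7AL.10, annotated as the 10 kDa mitochondrial heat shock protein, shared a member at 507 (286 and 215), so 1 summit lay upstream of both parts of this chaperonin. The dnj-13/F54D5.9 member, at a DnaJ co-chaperone gene, had 463 (289 and 178), and that of Y55F3AR.2/cct-8, at a subunit of the cytosolic chaperonin, had 408 (259 and 139). Further members among the 25 strongest lay at iff-2, translation initiation factor 5A (345), at ubc-6, a ubiquitin-conjugating enzyme (311), at atp-1, the ATP synthase alpha subunit (301), at icd-1, a subunit of the nascent polypeptide-associated complex (295.9), and at dad-1, a subunit of the oligosaccharyltransferase (282). Those outside these roles included tag-340/nhl-2 (524), where nhl-2 is a TRIM-NHL cofactor of microRNAs, cls-2/R107.5 (408), cap-2/gmps-1 (358), wip-1/larp-1 (347) and R06C1.4/wve-1 (287).

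The range of the members was wide. Signal ran from 2.45 to 998 with a median of 119, beside a median of 100.2 for single-gene promoter peaks, and 14 members were among the 100 strongest nuclear peaks. All 8 members below a signal of 20 lay at a pair that also held a stronger member. In all, 10 pairs held 2 members each, and in 8 of these the summits were at most 250 bp apart, as at M117.3/par-5, a pair of 14-3-3 genes, with 120.1 and 4.58 at a distance of 201 bp. The 240 members therefore stand for 230 pairs of nearest genes.

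Most summits lay between the starts of the pair. Every member had its nearest plus-strand and minus-strand genes in head-to-head order, with 15 to 1831 bp between the starts and a median of 511.5 bp. At 220 members the summit was between the starts, and at the other 20 it was inside one of the genes, at most 200 bp downstream of its start. The nearer start was a median of 145.5 bp away, the farther start 345 bp, and 192 of 240 summits were within 250 bp of the nearer start.

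Where the starts were at most 1000 bp apart, 195 summits lay between them. With the span cut into 3 equal parts, 45 of these lay in the part next to the minus-strand gene, 89 (45.6%) in the middle part and 61 in the part next to the plus-strand gene. The plus-strand start was nearer at 137 members and the minus-strand start at 103. The histone pair his-5/his-6 was close to symmetrical, with its summit 117 bp from the histone H4 gene his-5 and 120 bp from the histone H3 gene his-6, while atp-1/mcrs-1 was not, with 3 bp to atp-1 and 187 bp to mcrs-1. At the shortest gap, the F25H9.7/F25H9.6 pair, the summit was 7 and 8 bp from the starts.

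**Figure D1:**
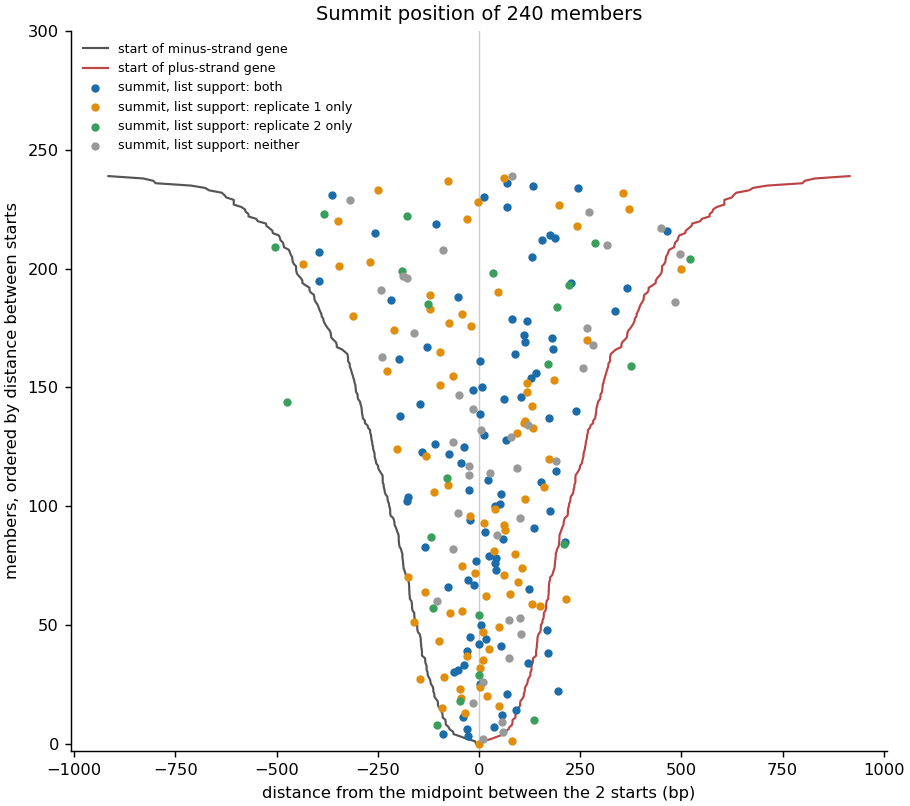
Each row is 1 of the 240 members, ordered from the smallest to the largest distance between its 2 gene starts (vertical axis). The horizontal axis is the distance in bp from the midpoint between the starts, the lines mark the minus-strand start (left) and the plus-strand start (right), and the points are the summits, coloured by the replicate lists that hold the peak; 220 summits lie between the lines.

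How often shared promoters held a peak was asked next. Of 3072 pairs of protein-coding genes on opposite strands whose promoter windows overlap, 248 (8.07%) held a member summit, above the 240 members because 1 summit can serve more than 1 pair. The share was highest where the starts were 251 to 500 bp apart, at 87 of 555 pairs (15.7%, 95% Wilson interval 12.9 to 18.9), and 12.2% at 501 to 750 bp. It was 7.98% for gaps of 1 to 250 bp, 10.5% for 751 to 1000 bp, 4.06% for 1001 to 1500 bp and 1.03% for 1501 to 2000 bp. None of the 52 pairs whose 5′ ends overlap held one (95% Wilson upper bound 6.88%). The stretch of shared sequence differs between these groups, with medians from 233 to 1133 bp, and the shares are not corrected for it. By chromosome the share was 12.2% on III (9.61 to 15.5), 10.2% on I, 7.92% on IV, 6.74% on II, 5.95% on V and 4.74% on X (2.51 to 8.76).

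Per base, shared promoter sequence held more summits than promoter sequence of 1 gene. Shared bases, those in promoter windows of genes on both strands, held 116 summits per Mb, single-gene bases 39.7 and the nuclear genome outside the neighbourhood of small RNA genes 24.2. The ratio of shared to single-gene bases was 2.92 (95% interval 2.52 to 3.39, two-sided exact binomial test, p = 3.72e-39). A shared base counts for 2.05 promoter windows on average, and per window the ratio was 1.43 (1.23 to 1.65, exact binomial p = 3.25e-06), a value added after the data had been seen. These tests treat peaks as the units, cover counting error only and say nothing of other worms.

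The difference depended on the distance from the nearest start, a split also added after the data had been seen. From 250 to 1 bp upstream, shared bases held 227.05 summits per Mb and single-gene bases 77.5, a ratio of 2.93 (2.42 to 3.55, exact binomial test, Benjamini-Hochberg adjusted over 4 bins, p = 2.06e-25). From 500 to 251 bp upstream the ratio was 2.13 (1.47 to 3.03, exact binomial test, adjusted p = 1.77e-04). It was not distinguishable from 1 between 1000 and 501 bp upstream, at 1.498 (0.674 to 2.90, adjusted p = 0.287), or from 0 to 200 bp downstream, at 1.13 (0.657 to 1.85, adjusted p = 0.607), by the same exact test. The first of these bins holds 9 members and the last holds 20.

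**Figure D2:**
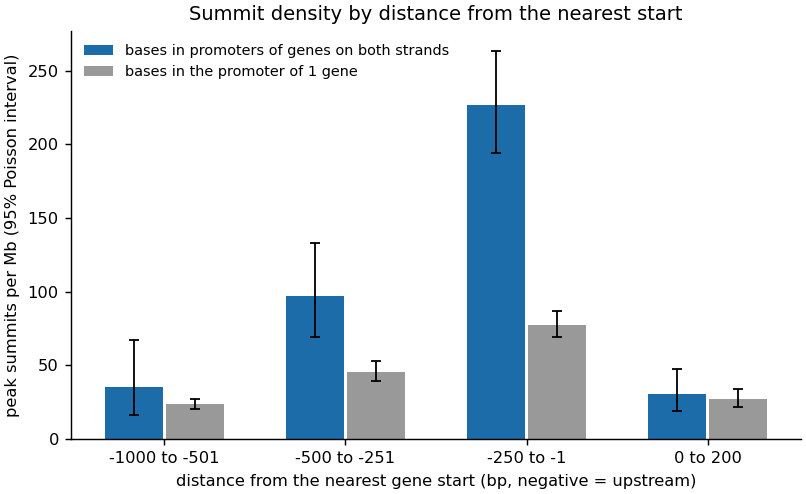
Peak summits per Mb of sequence (vertical axis) in 4 bins of distance from the nearest protein-coding start (horizontal axis, bp, negative values upstream), for bases in promoter windows of genes on both strands and for bases in the window of 1 gene. Bars are densities and error bars are 95% Poisson intervals; the intervals are apart in the bins from 500 to 251 and from 250 to 1 bp upstream and overlap in the other two.

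Members were called in both replicates more often than single-gene promoter peaks. A peak was counted as supported by a replicate when it overlapped a peak of that replicate's own thresholded list by at least 1 bp. Both lists held 95 of 240 members (39.6%, 95% Wilson interval 33.6 to 45.9) and 191 of 755 single-gene promoter peaks (25.3%, 22.3 to 28.5), giving an odds ratio of 1.93 with interval 1.40 to 2.66 (two-sided Fisher's exact test, Benjamini-Hochberg adjusted over 9 tests, p = 1.75e-04). Of the other members, 82 were in the list of replicate 1 alone, 22 in that of replicate 2 alone and 41 in neither. The stricter list, made by ranking replicate 1 against replicate 2, held 144 members (60.0%) and 48.1% of single-gene promoter peaks (adjusted p = 0.00426, Fisher's exact test).

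Members were also stronger. Among the strongest 25% of nuclear peaks away from small RNA genes, with signal of at least 138, were 94 members (39.2%, 33.2 to 45.5) and 184 single-gene promoter peaks (24.4%, 21.4 to 27.6), giving an odds ratio of 1.996 with interval 1.45 to 2.75 (adjusted p = 1.43e-04, Fisher's exact test). With members and comparison peaks taken afresh from the whole list of replicate 2, this difference was not past the threshold, at 43 of 135 members (31.9%) against 26.2% (adjusted p = 0.509, Fisher's exact test). With both taken from the whole list of replicate 1 it was, at 78 of 195 members against 25.5% (adjusted p = 0.00153, Fisher's exact test). Later differences given for the whole list of 1 replicate, or for the stricter list, were taken in the same way. Signal and support go together: 80 of the 94 members among the strongest 25% were in both lists (85.1%, 76.5 to 90.9), and 136 of 184 single-gene promoter peaks (73.9%, 67.1 to 79.7). In the next 25% of peaks these shares were 19.05% and 16.9%. In the 25% after that they were 0 of 52 members and 9 of 180 single-gene promoter peaks. In the weakest 25% they were 3 of 31 members (9.68%) and 7 of 160 single-gene promoter peaks (4.38%). The differences within these strata were not tested. A weak peak beside a stronger one can overlap the same replicate peak by 1 bp and so count as supported. With 1 summit per region, 92 of 232 members were in both lists.

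**Figure D3:**
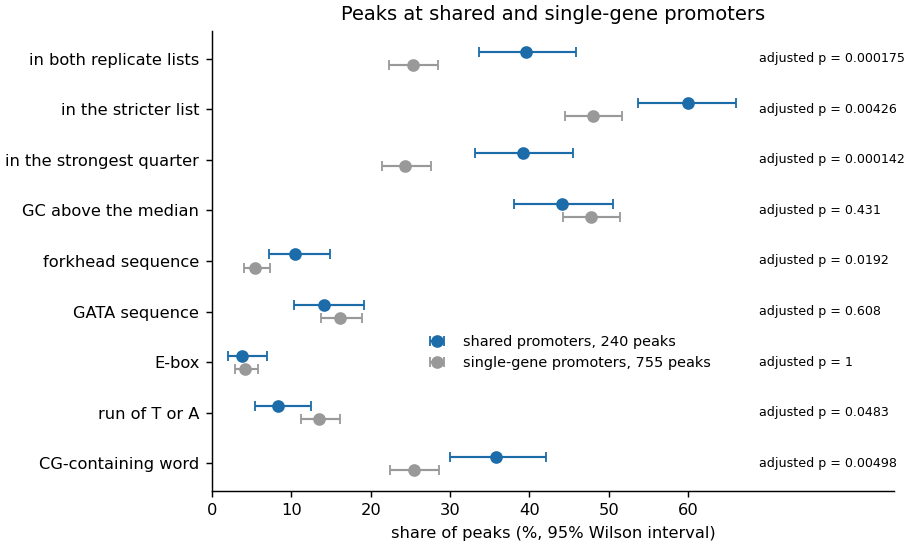
Share of peaks in percent (horizontal axis) with each property (rows) for the 240 members and the 755 single-gene promoter peaks. Points are shares, bars are 95% Wilson intervals and the text gives Fisher's exact p adjusted over the 9 properties; both replicate lists hold 39.6% of members and 25.3% of single-gene promoter peaks.

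Most members could be found in each replicate below the threshold too. A candidate peak of the replicate's full ranked list overlapped 235 of 240 members in replicate 1 and 232 in replicate 2, out of 84912 and 47072 nuclear candidates. The overlapping candidates had a median signal of 81.3 in replicate 1, at a median percentile of 98.6 among its candidates, and of 42.4 in replicate 2, at a median percentile of 96.4. Single-gene promoter peaks were close to this, with a candidate at 739 of 755 in replicate 1 and 728 in replicate 2. Their median percentiles were 98.2 and 95.6. How much overlap the number of candidates alone would give was not tested. Over the 227 members with a candidate in both, the 2 signals had a Spearman correlation of 0.605 and a Pearson correlation of 0.699 on the log scale, given as a description because all points share the same 2 libraries. Signal scales are set per list, so the levels of the replicates are not compared.

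In the list of 1 replicate alone were 82 members for replicate 1 and 22 for replicate 2, and some of them had no overlapping candidate in the other replicate. The htz-1/wapl-1 member, between the histone H2A.Z gene and a cohesin release factor gene, had a signal of 230.3 in the joint list and 72.6 in replicate 2, with no overlapping candidate in replicate 1. It was still in the stricter list made from both replicates, so the missing candidate does not show that replicate 1 had no signal there. The Y95B8A.6/pde-6 member was in the list of replicate 2 alone, with 134 there and 61.5 in replicate 1. In the other direction, C06A5.3/simr-1 (207.8) was in the list of replicate 1 alone, with 151 there and 41.96 in replicate 2, and ZK643.2/ZK643.5 (129) had no candidate in replicate 2. The prp-40/clu-1 member, at a splicing factor gene, had the lowest replicate 2 value, 7.02, beside 73.3 in replicate 1.

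**Figure D4:**
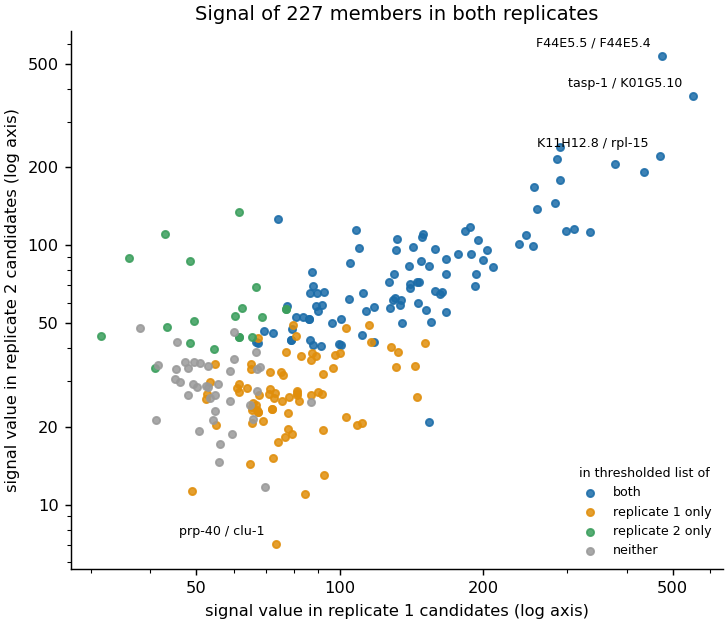
Signal value of the strongest overlapping candidate peak in replicate 1 (horizontal log axis) and in replicate 2 (vertical log axis) for the 227 members with a candidate in both, coloured by the thresholded lists that hold the member. F44E5.5/F44E5.4 has the highest replicate 2 value (539) and tasp-1/K01G5.10 the highest replicate 1 value (551), and prp-40/clu-1 lies lowest at 7.02 in replicate 2.

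Forkhead sequences were in a minority of members. TGTTTAC or TGTTTGC, on either strand within 50 bp of the summit, was found at 25 of 240 members (10.4%, 95% Wilson interval 7.16 to 14.9) and 41 of 755 single-gene promoter peaks (5.43%, 4.03 to 7.28), giving an odds ratio of 2.02 with interval 1.15 to 3.497 (adjusted p = 0.0192, Fisher's exact test). Windows of the same length held it at 5.56% of midpoints of head-to-head pairs without a member and 7.26% of those with one. At points 150 bp upstream of all protein-coding starts the share was 4.74%. From the strongest 25% of peaks by signal to the weakest, members stood at 9.57%, 9.52%, 15.4% and 6.45%. Single-gene promoter peaks stood at 5.43%, 8.23%, 2.78% and 4.38%, and these strata were not tested. The difference between members and single-gene promoter peaks was not past the threshold in the whole list of either replicate. By Fisher's exact test it was 8.15% against 3.78% in replicate 2 (adjusted p = 0.215) and 9.74% against 6.90% in replicate 1 (adjusted p = 0.488). By the same exact test, the difference was also short of it in the stricter list (8.90% against 6.35%, adjusted p = 0.798) and within 100 bp of the summit (36 of 240 against 10.7%, adjusted p = 0.151).

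Of the 8 strongest members with a forkhead sequence, 4 carry a gene that acts in the endoplasmic reticulum. These were enpl-1/imp-2 (238), where enpl-1 encodes the chaperone endoplasmin, trap-3/sec-61.B (225), a translocon-associated protein and a subunit of the Sec61 channel, spcs-2/mrg-1 (203), a signal peptidase subunit, and ile-2/trap-2 (192). The other 4 were K11H12.8/rpl-15 (695.7), R06C1.4/wve-1 (287), tsr-2/set-26 (216) and pfd-1/F01G4.6 (210.2). The grouping was noticed after the values were seen, rests on no list of such genes and has no background share and no test. Members without a forkhead sequence also lay at such genes, as at tre-1/dad-1 (282) and ubql-1/pdi-3 (271). The signals of enpl-1/imp-2, trap-3/sec-61.B, spcs-2/mrg-1 and ile-2/trap-2 in replicate 1 were 131, 132, 134 and 74.1 and in replicate 2 they were 96.3, 105.9, 58.8 and 126. All 4 of the former were in both lists.

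The letters GCGTC, part of a recurrent worm promoter element, were at 86 members (35.8%, 30.03 to 42.1) and at 25.4% of single-gene promoter peaks (odds ratio 1.64 with interval 1.18 to 2.26, adjusted p = 0.00498 by Fisher's exact test). They were at 7.40% of midpoints of head-to-head pairs without a member, 16.1% of those with one and 7.15% of points upstream of all starts. By the same exact test, the difference from single-gene promoter peaks was not past the threshold in the whole list of replicate 2 (31.9% against 28.1%, adjusted p = 0.768), in the stricter list (39.04% against 28.8%, adjusted p = 0.0976) or within 100 bp of the summit (42.9% against 37.1%, adjusted p = 0.165). For GATAA, the core of GATA factor sites, the shares were 14.2% and 16.2% (odds ratio 0.856 with exact interval 0.5497 to 1.31, adjusted p = 0.608). For the E-box CACGTG they were 3.75% and 4.11% (odds ratio 0.910 with exact interval 0.375 to 1.99, adjusted p = 1).

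Base composition depended on the window. Within 100 bp of the summit, 44.2% of members and 47.8% of single-gene promoter peaks had a GC content above the median of all nuclear peaks away from small RNA genes (Fisher's exact test, adjusted p = 0.431). Within 50 bp the order turned, with 62.5% of members and 51.5% of single-gene promoter peaks above the median for that window (exact test, adjusted p = 0.00532). In the whole list of replicate 2 the members were lower, at 32.6% against 47.6% (exact test, adjusted p = 0.0224), and in that of replicate 1 they were 54.9% against 50.4% (exact test, adjusted p = 0.506). Runs of TTTTTTT or AAAAAAA were at 8.33% of members and 13.5% of single-gene promoter peaks within 50 bp (exact test, adjusted p = 0.0483), and at 38.8% and 28.2% within 100 bp (adjusted p = 0.00654), also in the opposite order. In the main list, then, members more often had a GC-rich centre within 50 bp and a run of T or A somewhere within 100 bp.

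Gene classes defined by symbol differed in how many of their genes had a member. Of 5656 genes with a shared promoter, 477 (8.43%) had a member in their window, and 2.39% of all 19973 protein-coding genes did. The counts that follow are given beside that 8.43% and have no test. Cytosolic ribosomal protein genes stood at 23 of 53 (43.4%, 95% Wilson interval 31.0 to 56.7), chaperones at 16 of 38 (42.1%, 27.9 to 57.8) and mitochondrial import and inner membrane genes at 5 of 11 (45.5%, 21.3 to 72.0). Ribosome assembly and nucleolus followed with 8 of 24 (33.3%), translation factors with 6 of 23 (26.1%), the respiratory chain and ATP synthase with 12 of 46 (26.1%), splicing with 9 of 44 (20.5%) and vesicle traffic and vacuolar genes with 15 of 75. Symbol and function do not always match. The ribosome assembly class takes in lpd-9, annotated only as lipid depleted. The respiratory class leaves out nduc-2, annotated as an NADH dehydrogenase subunit.

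Chromatin, DREAM and cell cycle genes stood at 14 of 91 (15.4%, 9.39 to 24.2), mitochondrial ribosomal proteins at 5 of 30 (16.7%, 7.34 to 33.6), the transcription machinery at 5 of 36 (13.9%, 6.08 to 28.7) and aminoacyl-tRNA synthetases at 2 of 15 (13.3%, 3.74 to 37.9). Of these 4 intervals, that of the chromatin class lies above 8.43% and the other 3 hold it. Histones had 8 of 67 (11.9%), proteasome and ubiquitin genes 7 of 61 (11.5%) and nuclear pore and transport genes 2 of 25. Genes known only by a sequence name had 126 of 2284 (5.52%), leaving out names with a single letter and then digits before the dot, such as R107.5. Chemoreceptors had 3 of 297 (1.01%, 0.344 to 2.93), C-type lectins 1 of 81 (1.23%) and collagens 1 of 41 (2.44%). No neuropeptide gene of 17 and no autophagy gene of 5 had one (95% Wilson upper bounds 18.4% and 43.4%).

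**Figure D5:**
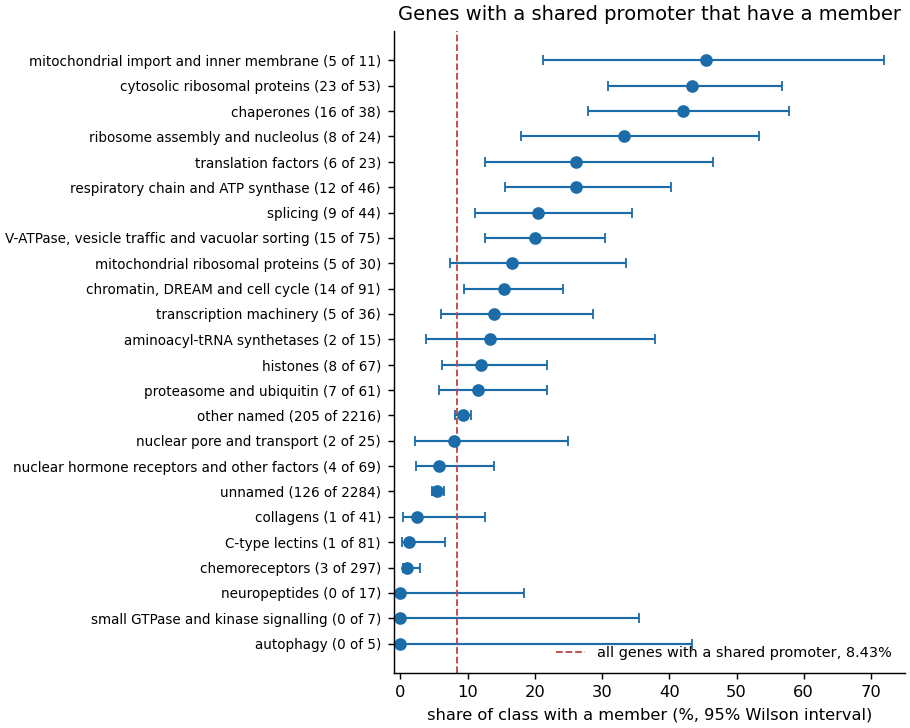
Share of genes with a shared promoter that have a member in their promoter window, in percent (horizontal axis), for gene classes defined by symbol (rows, with counts). Points are shares, bars are 95% Wilson intervals and the dashed line is the 8.43% of all genes with a shared promoter; ribosomal proteins (43.4%) and chaperones (42.1%) lie to its right and chemoreceptors (1.01%) to its left.

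Ribosomal protein genes were at 20 members with a median signal of 134, of which 10 were in both replicate lists. At 3 of them both nearest genes encode ribosomal proteins: rpl-24.1/rps-10 (141), rps-30/rpl-39 (91.2) and rpl-36/rps-14 (89.02). The remaining 17 had a partner of another kind, such as the DREAM complex subunit gene lin-54 beside rpl-12, the SET domain gene set-21 beside rpl-7A, and the Rab GTPase gene rab-11.1 beside rpl-7. In 7 of these 17 the summit was nearer to the ribosomal protein gene and in 10 nearer to the partner. The distance to the ribosomal protein start ran from 62 to 731 bp with a median of 275, and that to the partner from 80 to 647 bp with a median of 190.

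Chaperone genes, as defined by symbol, were at 15 members with a median signal of 205, and 12 of these were in both lists. This class leaves out chaperone genes with other symbols. Among these are the ones at F44E5.5/F44E5.4, enpl-1/imp-2 and bmy-1/F09E5.11 (137), which were also in both lists. Not all such genes are named here. The small heat shock protein pair hsp-16.41/hsp-16.2, whose genes are induced by heat, had a member at 130 (77.6 in replicate 1 and 58.3 in replicate 2), 42 and 179 bp from the starts. The pair rpn-3/hsp-110, a proteasome lid subunit and a heat shock protein, had one at 281 (209.6 and 82.8). The ndua-2/dnj-29 member, at a complex I subunit and a DnaJ protein gene, was weak (84.1) and in neither list.

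Both nearest genes belonged to a named class at 20 members, and to the same class at 8. The latter were, beside the ribosomal and small heat shock protein pairs, the histone pairs his-5/his-6 (241), his-68/his-67 (231) and his-62/his-61 (135), and rsp-1/rsp-2 (99.3), genes of SR splicing factors. One nearest gene was in a class at 106 members and neither at 114. Related functions outside the classes were seen at ant-1.1/T27E9.2 (196.5), an ADP/ATP translocase and a cytochrome bc1 subunit, and at rpl-43/Y48B6A.1 (166), a ribosomal protein and a ribosome biogenesis factor of the BOP1 type. At 105 members at least 1 of the nearest genes had only a sequence name, again without names such as R107.5.

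Members at translation factor genes, 6 in all, had a median signal of 195, and the 12 at respiratory chain and ATP synthase genes a median of 92.9, beside 119 for all members. The eef-2/clsp-1 member, at the gene of translation elongation factor 2, had a signal of 261 (193 in replicate 1 and 69.5 in replicate 2). At mev-1, a subunit of succinate dehydrogenase, the signal was 165 (144 and 34.3), in the list of replicate 1 alone. Nucleolar genes included fib-1, fibrillarin, at 128 (97.6 and 37.9), and ruvb-1 at 249 (154 and 83.2). Genes with the symbols mrpl or mrps were at 6 members, none of which was in both lists. A gene outside these symbols, R186.8, is annotated as mitochondrial ribosomal protein L33, and its member lin-46/R186.8 (170.5) was in both lists.

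Genes of the foregut were not among them. The lists of pharyngeal muscle genes, pharyngeal gland and cuticle genes and foregut regulators hold 12, 27 and 18 genes found in the annotation. Of these only 1, 9 and 1 have a shared promoter, and 0 had a member (for glands and cuticle, 95% Wilson upper bound 29.9%). With so few genes in this arrangement, the counts do not bear on PHA-4 at foregut genes elsewhere.

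Repeated sequence touched a small number of members. In 224 of the 240, every 32-letter word within 50 bp of the summit occurred once in the nuclear genome. Among the 16 others, 5 had fewer than 50% of their words found once, such as ubc-6/aka-1 (17.1%) and the stronger tofu-1/ruvb-1 member (45.7%). Also among the 16 were his-5/his-6, with 68.6%, set-21/rpl-7A, with 81.4%, and lin-46/R186.8, also with repeated words. At these members reads could come from other copies. How the authors placed reads that match several sites is not given in the sources used here, so the signal of these is uncertain.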

How the data were processed

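Per the file headers and notes deposited beside the lists, the authors called peaks on ce11 against a control from filtered alignments. The programs for alignment and peak calling and their versions are not given in the sources used here. The deposited signal values have a scale set per list and were used within a list only. The authors' ranked lists also hold the −log10 of the irreproducible discovery rate (IDR), which is at least 2 for all peaks of the main list, an IDR of at most 0.01. The deposited summit offset was added to the peak start. Depth is unknown because no read numbers were given, and control reads were not analysed here, so intervals cover counting error over peaks only.

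The main list is the less strict thresholded list made from both replicates, with 2920 nuclear peaks, 2409 of them farther than 250 bp from small RNA genes. The list of replicate 1 held 2114 nuclear peaks, that of replicate 2 held 1643 and the stricter list 1555. Gene starts came from Ensembl release 115 and sequence and product names from RefSeq. Of 19973 protein-coding genes, 19962 matched RefSeq by gene identifier, all on the same chromosome and strand. Start and end coordinates were the same for 17578 of these (88.1%), and the distances to starts given here are those of Ensembl. No peak ran past a chromosome end. Shares were compared by two-sided Fisher's exact tests, adjusted by Benjamini-Hochberg over 9 tests with a threshold of 0.05, and densities by exact binomial tests, all in scipy 1.17.1 and tested on simulated peaks. Intervals are 95% Wilson intervals for shares and 95% conditional intervals for odds ratios.

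Genes named are those at the 25 strongest members, up to 3 per class, members at foregut genes and pairs with both genes in a class; others were named after their values were seen. Classes were defined by symbol, and gene families outside the chemoreceptors that share the sr letters were taken out of that class after the values were seen. The members, lists and classes were chosen with earlier results of these data known. Replicates are labelled as biological replicates, and peaks, not animals, are the units of all tests. One item is not reported here.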

Additional observations from a re-analysis of the deposited data

How the results depend on the processing

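All tests treat peaks as units in 1 group of 2 replicates of unknown depth, so no value has a replicate error. No paired analysis was possible because there is only 1 group. The density ratio of shared to single-gene promoter bases kept its direction and stayed past the threshold under 9 other lists, windows and filters, from 2.42 to 4.05, with 3.36 to 3.44 when 1 replicate was left out; added after the data were seen, it was 1.498 from 1000 to 501 bp upstream and 1.13 downstream of the start, both short of the threshold, and 1.43 per promoter window. Leaving out 1 replicate means using the other's list. The number of members was 146 in the stricter list and 135 to 195 with 1 replicate left out. The share of shared promoters with a member was 4.98% in the stricter list, 11.0% at an IDR of 0.05, 9.15% with windows of 500 bp upstream and 4.43% to 6.51% with 1 replicate left out. Shares in both replicate lists and in the stricter list kept their direction and call under every alternative tried for them. The following are members minus single-gene promoter peaks, in percentage points. For the strongest 25% by signal, leaving out 1 replicate gave 5.64 to 14.5, the former short of the threshold. For the forkhead sequence the difference was short of the threshold in the stricter list (2.55), with 500 bp windows (4.74), within 100 bp of the summit (4.27) and without either replicate (2.85 to 4.36). For GCGTC it was short in the stricter list (10.2), with 500 bp windows (6.12), within 100 bp (5.83) and in 1 of the 2 replicate lists (3.74 to 10.4). For TTTTTTT it was short in the stricter list (-0.355), at an IDR of 0.05 (-4.26), with 500 bp windows (-5.34), with small RNA genes kept (-4.60) and with 1 summit per region (-4.52), turned to 10.5 within 100 bp, and ran from -2.89 to 0.110 with 1 replicate left out. GC content above the median turned to 1.34 in the stricter list, 2.59 at an IDR of 0.05 and 11.0 within 50 bp, and ran from -14.98 to 4.49 with 1 replicate left out. CACGTG turned to 0.188 in the stricter list and 0.736 with 500 bp windows and ran from -0.174 to 0.260 with 1 replicate left out, none past the threshold. The cause was not tested.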

Other observations

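Short words shared by the summits were counted without a preset motif, after the values had been seen and with no test. Among 8-letter words present, on either strand, at no more than 1% of windows 150 bp upstream of all protein-coding starts, AAGTGCGC was within 50 bp of the most member summits, at 23 of 240 (9.58%). It was at 20 of 755 single-gene promoter peaks (2.65%), at 0.794% of midpoints of head-to-head pairs without a member and at 0.501% of windows upstream of all starts. The next was GCGCTCCA, at 19 members (7.92%), 12 single-gene promoter peaks (1.59%) and 0.521% of windows upstream of all starts. GCGTCAGC, which contains GCGTC, was at 17 members (7.08%), 17 single-gene promoter peaks (2.25%) and 0.190% of the windows upstream of all starts. AAACGCGC, the last of the 8 listed, was at 14 members (5.83%) and 37 single-gene promoter peaks (4.90%). The words were picked by their count at members, which favours members in these comparisons. Among words within this 1% limit, the 8 most frequent at members each contain CG and none contains TGTTTAC or TGTTTGC. The limit leaves out words that are common upstream of starts, so this does not describe all words at members. Member summits had a mean GC content of 48.3% within 50 bp, beside 45.9% at single-gene summits. Midpoints of head-to-head pairs had 37.5% with a member and 34.7% without. The part of composition in these counts was not tested.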
